A study of Mus musculus with 4 samples.

Results

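The cytosolic heat shock proteins and co-chaperones were followed in hearts of Klf9 knockout mice and of wild-type mice. The members were 41 genes chosen by symbol, and all 41 were found among the 17485 genes of the deposited table. They fell into 8 classes: 3 HSP110 genes, 8 HSP70 genes, 7 small heat shock protein genes, 2 HSP90 genes, 6 HSP90 co-chaperones, 9 DNAJ genes, 3 BAG genes and 3 heat shock factors. Most of them act in the cytosol, but Hspa13 and Dnajb9 encode chaperones of the endoplasmic reticulum.

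The study sequenced total RNA from hearts of Klf9 KO mice (2 libraries) and WT mice (2 libraries), with 8 weeks of age and male sex given for every sample. Klf9 encodes a Krüppel-like zinc finger factor that binds DNA, and the comparison was made to ask how it bears on mitochondria of the heart. The labels gave neither the strain, nor the knockout allele, nor whether the deletion was whole-body, nor a pool or litter. Separate animals behind the libraries of a group were not stated, and the p-values therefore cover the spread of these libraries alone, which may be technical. The table held log2 ratios of each knockout library over each wild-type library, from which a value per library was recovered in a unit that was not given, so values of different genes are not compared.

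Chaperones bind unfolded or partly folded proteins and keep them from aggregating. HSP70 proteins work in cycles of ATP hydrolysis that DNAJ proteins start and that HSP110 and BAG proteins, as nucleotide exchange factors, reset. HSP90 takes over many clients from HSP70 with the help of co-chaperones. Small heat shock proteins hold clients without ATP, and heart muscle uses them to look after its contractile filaments. Heat shock factor 1 (HSF1) drives many of these genes through the heat shock element, a DNA motif of alternating GAA and TTC units.

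Klf9 itself had values of 2.66 and 1.99 in the knockout libraries, against 74.9 and 58.8 in the wild-type libraries, which is -4.35 ± 0.20 on the log2 scale (SE, n = 2 libraries a group, adjusted p = 3.46e-06 in limma), so the labels held for this gene. The labels do not say which stretch of the gene was deleted. The library labelled Klf9 KO replicate 2 went against its label of male sex. Kdm5d and Ddx3y, both on the Y chromosome, stood at 0.01 in it, the lowest value of the table, and at 3.42 or more in the other libraries. The total counts and the calls of the chaperone genes are therefore also given without that library. The marker counts that follow used all 4 libraries. Esr1 stood at 0.09 and 0.03 in knockout hearts and at 3326 and 2726 in wild-type hearts, so the groups differed in more than Klf9. Of 7 cardiomyocyte markers 0 rose and 1 fell, and none was at 0.01. Their median log2 fold change was -0.47, against 0.12 over all tested genes and -0.50 for the chaperone genes. Both knockout values lay below both wild-type values in 4 of them and above in 2, beside 30.2% and 45.2% of all tested genes. Summed values, in which the highest genes weigh most, were 30413 to 32267 in knockout and 27550 to 32316 in wild-type hearts. The 5 proliferation markers had sums of 77.8 to 98.0 in knockout and 4.71 to 6.04 in wild-type hearts. All 5 rose, but 2 of them (Ccnb1 and Cdk1) entered the test only through their knockout values. Of 10 immediate early genes 8 were tested and 7 rose, with sums of 204 to 290 in knockout and 60.4 to 76.9 in wild-type hearts. All 4 epicardial markers rose. Of 5 atrial markers 3 were tested, of which Nppa fell (-0.92) and 2 rose (Myl4 and Myl7). Myl7 entered the test only through its knockout values. Of 5 fibroblast markers 2 rose, Col1a1 (3.01) and Tcf21 (2.12), and 1 fell. Of 5 macrophage markers 4 fell, with sums of 42.0 to 43.5 in knockout and 151 to 268 in wild-type hearts. Of 4 neutrophil markers 3 were tested and 2 fell (S100a8 and S100a9), with sums of 2.24 to 2.62 in knockout and 15.7 to 17.3 in wild-type hearts. S100a8 entered the test only through its wild-type values. The part of these differences in the chaperone results was not tested. Fewer cells of a type and less RNA per cell cannot be told apart in such bulk samples.

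Knockout hearts had lower RNA of 17 chaperone genes and higher RNA of 2. The test was limma on log2(value + 1) over the 12135 genes that reached a value of 1 in 2 or more libraries, at a Benjamini-Hochberg adjusted p below 0.05. Of the 41 genes, 40 entered it and 21 did not pass. Across all tested genes 17% fell and 27.7% rose, so the share of chaperone genes that fell (42.5%) was above that background and the share that rose (5%) below it. Hsf4, which is among the 17, reached a value of 1 only in wild-type hearts and so had to differ. Among genes that reached 1 in both groups, 16 of 39 chaperone genes fell (41%), beside 15.8% of 11220 genes. The median log2 fold change of the 40 genes was -0.50, against 0.12 over all tested genes. A fall of at least 1 on the log2 scale was found for 9 chaperone genes, beside 7.33% of all tested genes. Leaving out Klf9 KO replicate 2, 12 fell and 0 rose, beside 9.06% and 15.3% of all genes. With Klf9 KO replicate 1 left out, 10 fell and 1 rose (10.3% and 18.1% of all genes). With WT replicate 1 left out, 26 fell and 3 rose (26.9% and 35.7%), and with WT replicate 2 left out, 21 fell and 4 rose (19.1% and 32.9%). After RLE scaling, which divides each library by its median ratio to a mean library, 22 fell and 1 rose (20.6% and 22.9%), and after scaling to the upper quartile 20 fell and 1 rose (19% and 25.4%).

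In the authors' deposited table all 4 pairwise log2 ratios of 27 chaperone genes were below 0 and those of 7 genes were above 0, while 7 genes had ratios of both signs. Both knockout values lay below both wild-type values in 26 of the 40 tested chaperone genes, beside 30.2% of all tested genes, and above them in 7, beside 45.2%. At q below 0.05 the DEGseq comparison in the authors' deposited table had 29 of the 41 genes lower and 7 higher, beside 28.7% and 41.3% of its genes. Of those, 16 did not pass limma and 1 (Hspa1a) was not tested in it.

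**Figure D1:**
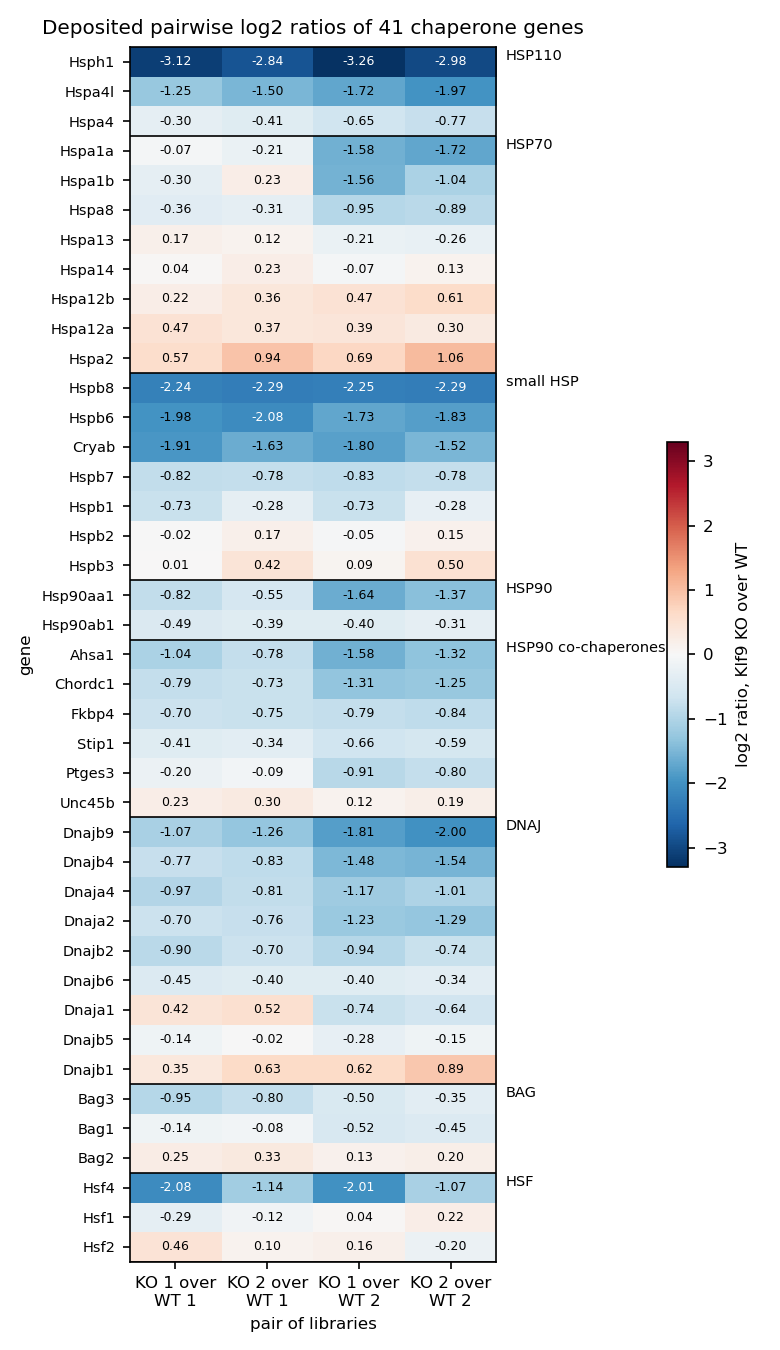
Deposited log2 ratios of each Klf9 KO library over each WT library (columns) for all 41 chaperone genes (rows, grouped by class and ordered by the authors' ratio of the groups); blue is lower and red higher in the knockout. Hsph1 and Hspb8 are dark in all 4 columns, whereas Dnaja1 has ratios of both signs.

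Hsph1, which encodes the main inducible HSP110, had the largest fall among the chaperones. Its values were 5.43 and 6.59 in knockout hearts, against 47.2 and 52.2 in wild-type hearts. Both knockout libraries stood far below both wild-type libraries, with a ratio of means of 0.121, or 8.26 times lower. The log2 fold change was -2.86 ± 0.18 (SE, limma adjusted p = 1.39e-05), at rank 58 from the most negative of 12135 genes. In the authors' deposited table its 4 pairwise log2 ratios ran from -3.26 to -2.84, and the log2 fold change without Klf9 KO replicate 2 was -2.98.

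Hspa4l, an HSP110 that is also induced by heat, read 6.52 and 5.49 in knockout and 15.5 and 21.5 in wild-type hearts (log2 fold change -1.47 ± 0.20, limma adjusted p = 0.0006). Hspa4, the constitutive HSP110, read 32.1 and 29.6 in knockout and 39.4 and 50.5 in wild-type hearts. Its groups did not overlap either, but the change of -0.52 ± 0.20 did not pass (limma adjusted p = 0.0575) without further scaling and did after RLE scaling (adjusted p = 0.0258), and over its alternatives adjusted p ran from 0.000967 without WT replicate 1 to 0.407 without Klf9 KO replicate 2. Set against all tested genes the class median was -1.58, and Hsph1 and Hspa4l passed without Klf9 KO replicate 2 as well.

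The promoter of Hsph1 is shown for its heat shock element, beside 2 other chaperone promoters and the shorter element of the Hspa1a and Hspa1b pair. Those 2 were the only others with 3 uninterrupted units among the 33 chaperone genes whose promoters could be searched. Sequences are from RefSeq (GRCm38.p6), 5′ to 3′ along the gene, with the matched units in capitals, while the sources used here name no build for the deposited table.
Hsph1 (chr5:149636281-149636307, minus strand): ctgcagaTTCTGGAAAGTTCtcctcag
Chordc1 (chr9:18292261-18292287, plus strand): cgGAACGTTCGGGAAAATTCCTGAAgc
Dnajb6 (chr5:29735845-29735871, plus strand): gctccgaGAATCTTCCGGAAcgctaga
Hspa1a (chr17:34972243-34972270, minus strand): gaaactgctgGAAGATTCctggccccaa
Hspa1b (chr17:34959325-34959352, minus strand): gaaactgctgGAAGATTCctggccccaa
Counting the start site as 1, the element of Hsph1 covered bases 16 to 28 downstream of the later of its 2 listed start sites. In Chordc1 3 overlapping matches ran from base -4 to base 19, and in Dnajb6 the element ran from -46 to -34 of the earlier of its 2 listed start sites. Hsph1 and Chordc1 fell in knockout hearts, and Dnajb6 did not pass.

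Promoters of 33 of the 41 genes were in the table, each reaching from 250 bases before the start site to 50 after it. Those of Cryab, Hsf1, Hsf4, Hsp90aa1, Hsp90ab1, Hspa8, Hspa13 and Hspb2 were missing and were not searched. The 3-unit motif was GAANNTTCNNGAA or TTCNNGAANNTTC, which together cover both strands. At least 1 promoter held it in 3 of 33 chaperone genes (9.09%) and in 179 of 27025 genes of the table (0.662%). The 2-unit motif (GAANNTTC or TTCNNGAA, each its own complement and contained in the longer motif) was found in 14 of 33 (42.4%), against 17% of all genes. Of those 14, 8 fell, 0 rose, 5 did not pass and 1 was not tested. Of the 19 without it 6 fell, 2 rose and 11 did not pass. The GC box, a site type of Krüppel-like factors, was searched as GGGCGG or CCGCCC, which can share at most an edge base with a heat shock element, and was found in 28 of 33 (84.8%) and in 38.2% of all genes. Of the 28 genes with a GC box 12 fell, 2 rose, 13 did not pass and 1 was not tested. The 5 without it had 2 that fell and 3 that did not pass. Across all tested genes, with or without a motif, 17% fell and 27.7% rose. Calls were not counted by motif over all genes, and a link between motif and call was not tested. Genes with more than 1 start site had more sequence searched. The 27025 genes also include genes that were not tested here, and motif shares over the tested genes alone were not counted.

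Small heat shock proteins included 4 genes that fell and 0 that rose among 7 tested. Hspb8, the partner of BAG3 in the clearance of damaged filament proteins, had values of 74.8 and 72.3 in knockout hearts, against 353 and 355 in wild-type hearts. The libraries of each group were close together and the groups lay 4.81 times apart, with the knockout lower (log2 fold change -2.25 ± 0.20, limma adjusted p = 5.66e-05). In the authors' deposited table its pairwise log2 ratios stayed between -2.29 and -2.24.

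Hspb6 (HSP20), which is phosphorylated under beta-adrenergic stimulation, read 444 and 414 in knockout and 1747 and 1470 in wild-type hearts. That was 3.75 times lower in the knockout (log2 fold change -1.90 ± 0.23, limma adjusted p = 0.000306). Cryab (alpha B-crystallin), which binds desmin and titin, read 767 and 933 in knockout and 2885 and 2673 in wild-type hearts. It was 3.27 times lower in the knockout (-1.71 ± 0.24, limma adjusted p = 0.00064). Hspb7, a partner of filamin C in cardiac muscle, read 911 and 942 in knockout and 1614 and 1621 in wild-type hearts. Its groups did not overlap and it passed with all 4 libraries (-0.80 ± 0.23, limma adjusted p = 0.0192), but not without Klf9 KO replicate 1 (adjusted p = 0.273) or replicate 2 (adjusted p = 0.256).

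The other 3 genes of the class did not pass. Hspb1 (HSP25 in the mouse), which protects actin filaments, read 221 and 301 in knockout and 367 and 366 in wild-type hearts (-0.50 ± 0.23, limma adjusted p = 0.107). Its adjusted p was 0.046 after RLE scaling, 0.0432 and 0.0489 without WT replicate 1 or 2, and up to 0.705 without Klf9 KO replicate 1. Hspb2, a binding partner of the myotonic dystrophy kinase, read 52.0 and 59.4 in knockout and 52.8 and 53.7 in wild-type hearts, and the groups overlapped. Its log2 fold change was 0.06 with a 95% interval of -0.36 to 0.48 and turned to -0.05 after RLE scaling and -0.03 without Klf9 KO replicate 2. Hspb3, which forms complexes with Hspb2 in muscle, read 7.44 and 9.88 in knockout and 7.37 and 6.98 in wild-type hearts (0.23 ± 0.19, limma adjusted p = 0.34). The class median relative to all tested genes was -0.92, and 3 of its genes passed without Klf9 KO replicate 2.

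Cryab and Hspb2 are neighbours whose annotated spans overlap in RefSeq, and whether reads were counted by strand was not given, so reads in the shared stretch cannot be told apart. The span of Hspb6 overlaps Lin37 in the same way; Lin37 read 14.1 and 14.8 in knockout and 11.5 and 9.77 in wild-type hearts, with a log2 fold change of 0.42. The 250 bases upstream of Hspb8 and of the later listed start site of Hspb6 are shown because these genes had the largest falls of the class, with GC boxes and, in Hspb6, a 2-unit heat shock element in capitals.
Hspb8 (chr5:116422865-116423114, minus strand): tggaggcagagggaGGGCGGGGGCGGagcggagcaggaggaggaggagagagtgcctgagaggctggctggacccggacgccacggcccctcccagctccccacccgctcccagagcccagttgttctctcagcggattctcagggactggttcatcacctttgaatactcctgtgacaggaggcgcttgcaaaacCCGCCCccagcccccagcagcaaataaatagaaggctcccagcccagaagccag
Hspb6 (chr7:30553051-30553300, plus strand): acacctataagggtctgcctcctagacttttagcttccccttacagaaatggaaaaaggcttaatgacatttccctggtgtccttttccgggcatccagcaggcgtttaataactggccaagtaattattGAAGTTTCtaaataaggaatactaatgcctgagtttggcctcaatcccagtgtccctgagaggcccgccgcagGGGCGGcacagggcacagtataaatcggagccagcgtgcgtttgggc
Hspb8 had 3 GC boxes in this stretch, and its 2-unit element lay just past it, at bases 3 to 10 downstream of the start site. Hspb6 had 1 GC box and 1 element.

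**Figure D2:**
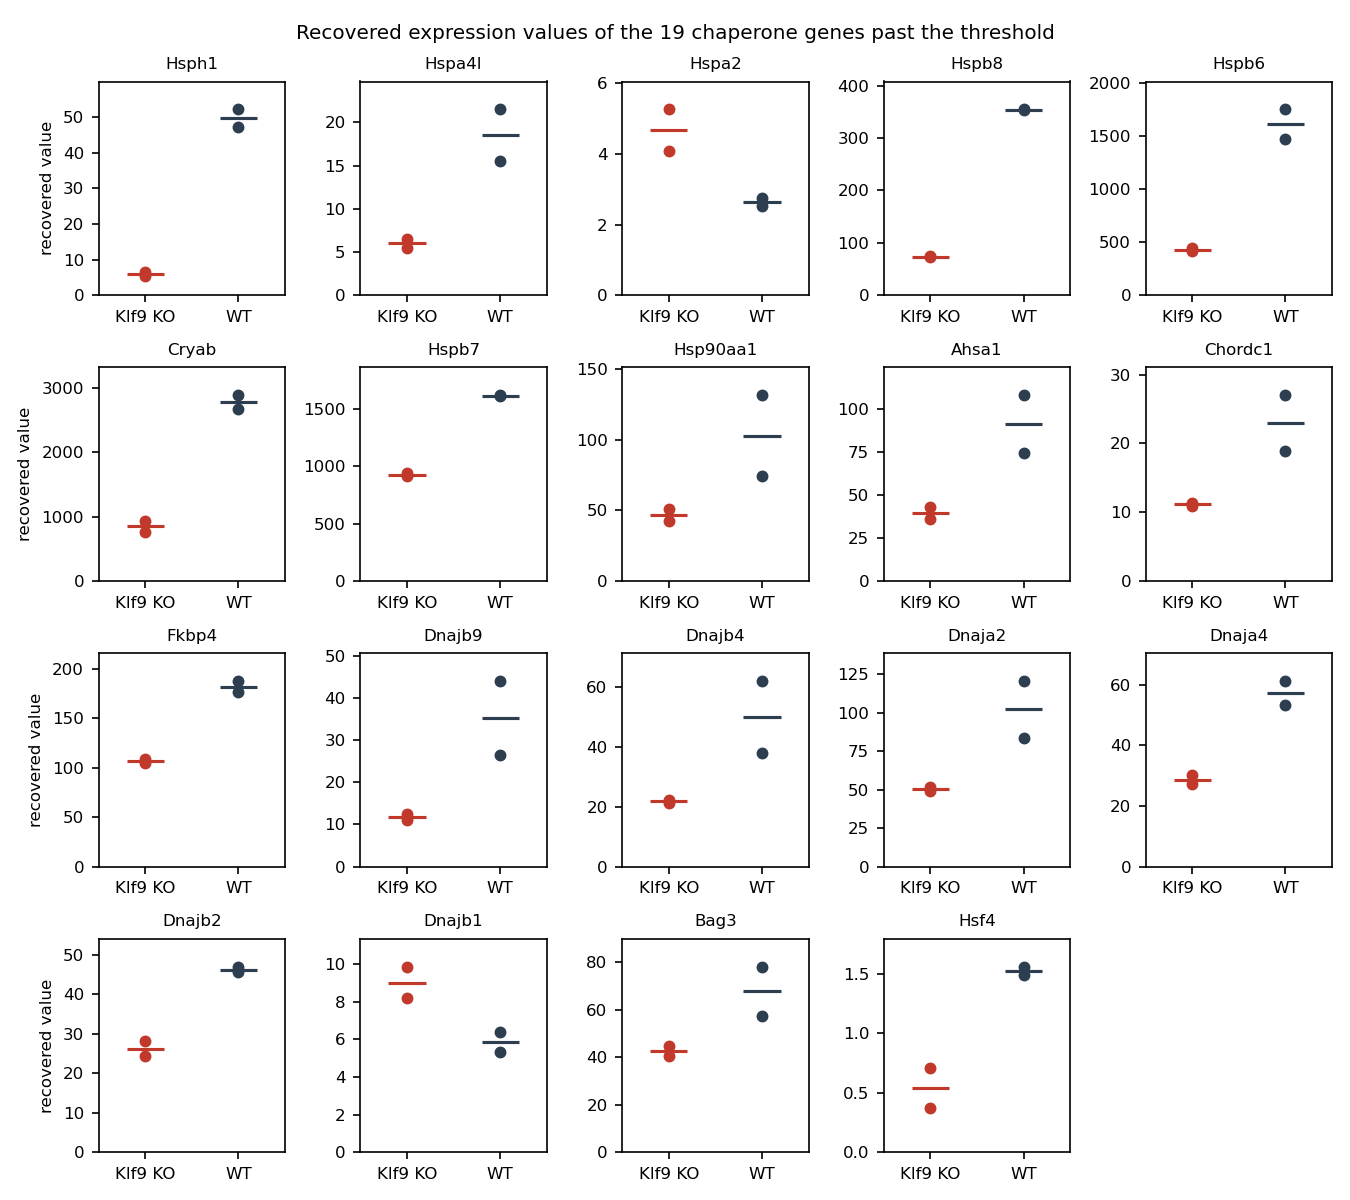
Recovered value (vertical axis from 0, unit not given) of the 19 chaperone genes past the threshold, with Klf9 KO libraries left and WT libraries right in each panel; points are libraries and bars are means of 2. In all 19 panels the groups do not overlap, and only Hspa2 and Dnajb1 are higher in the knockout.

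Of the 8 HSP70 genes 7 were tested, 1 rose, 0 fell (1 at an unadjusted p below 0.05) and 6 did not pass. Their median, less that of all tested genes, was -0.05, and 0.02 without Klf9 KO replicate 1. Hspa2, known best from the testis, had values of 4.09 and 5.26 in knockout hearts, against 2.75 and 2.53 in wild-type hearts. Both knockout libraries were higher (log2 fold change 0.63 ± 0.18, limma adjusted p = 0.0199), but the call was lost without Klf9 KO replicate 2 (0.48, adjusted p = 0.274).

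Hspa8, the constitutive HSC70, read 764 and 795 in knockout and 983 and 1477 in wild-type hearts. The groups did not overlap, and the wild-type libraries differed more from each other than WT replicate 1 did from the knockout. Its change of -0.63 ± 0.26 did not pass (limma adjusted p = 0.0818), with a 95% interval of -1.23 to -0.03. Its adjusted p ran from 0.000433 without WT replicate 1 to 0.409 without Klf9 KO replicate 1, and was 0.0353 after RLE scaling and 0.0286 with the replicate number as a block.

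The stress-induced genes Hspa1a and Hspa1b had values of 3.69 or less in every library. Hspa1a read 0.77 and 0.70 in knockout and 0.81 and 2.30 in wild-type hearts and was not tested, because only WT replicate 2 reached 1. Hspa1b read 1.25 and 1.80 in knockout and 1.54 and 3.69 in wild-type hearts, with overlapping groups (-0.46 ± 0.27, limma adjusted p = 0.201; 0.00111 without WT replicate 1 and 0.946 without WT replicate 2). These neighbours are near-identical copies, with 247 of 250 bases shared upstream of their start sites, and how reads were divided between them was not given. Hspa12a and Hspa12b, of which Hspa12b is known from endothelial cells, are distant HSP70 relatives, and both were higher in each knockout library without passing. Hspa12a read 15.9 and 14.9 in knockout and 11.5 and 12.2 in wild-type hearts (0.35 ± 0.17, adjusted p = 0.12, limma; from 0.0363 without WT replicate 2 to 0.552 without Klf9 KO replicate 1). Hspa12b read 28.3 and 31.3 in knockout and 24.3 and 20.5 in wild-type hearts (0.40 ± 0.18, adjusted p = 0.11, limma; from 0.00663 without WT replicate 1 to 0.577 without Klf9 KO replicate 2). Hspa13 and the ribosome-associated Hspa14 overlapped between groups, with log2 fold changes of -0.04 and 0.07. Hspa13 turned to 0.12 without WT replicate 2, and Hspa14 to -0.03 after RLE scaling and -0.01 without Klf9 KO replicate 2.

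Of the 2 HSP90 genes 1 fell. Hsp90aa1, the inducible alpha form, read 42.3 and 50.8 in knockout and 74.4 and 132 in wild-type hearts. Both knockout values were lower (log2 fold change -1.08 ± 0.27, limma adjusted p = 0.0118), although adjusted p was 0.0582 without Klf9 KO replicate 1. The log2 fold change was -1.49 without WT replicate 1 and -0.67 without WT replicate 2. Hsp90ab1, the constitutive beta form, read 655 and 700 in knockout and 919 and 867 in wild-type hearts. The groups did not overlap there either, but the change of -0.40 ± 0.22 did not pass (limma adjusted p = 0.175; from 0.0408 without WT replicate 2 to 0.656 without Klf9 KO replicate 1). The difference between the forms was not tested.

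Among the 6 HSP90 co-chaperones 3 fell, 3 did not pass and 0 rose. The class median stood at -0.74 relative to all tested genes and at -0.93 without WT replicate 1. Ahsa1, the activator of the HSP90 ATPase, read 36.2 and 43.3 in knockout and 74.5 and 108 in wild-type hearts. It was 2.30 times lower in the knockout (-1.16 ± 0.23, limma adjusted p = 0.0036). Chordc1, a zinc-binding HSP90 partner that responds to heat, read 10.9 and 11.4 in knockout and 18.9 and 27.01 in wild-type hearts. Its change was -0.96 ± 0.21 (limma adjusted p = 0.00579). Fkbp4, the immunophilin of steroid receptor complexes, read 108 and 105 in knockout and 176 and 188 in wild-type hearts. It passed with 4 libraries (-0.76 ± 0.20, limma adjusted p = 0.0132) and not without Klf9 KO replicate 1 or 2 (adjusted p = 0.164 and 0.214).

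The remaining co-chaperones gave smaller differences. Stip1 (HOP), which links HSP70 to HSP90, read 31.9 and 33.5 in knockout and 42.3 and 50.5 in wild-type hearts (-0.49 ± 0.19, limma adjusted p = 0.0606). Its adjusted p was 0.0251 after RLE scaling, 0.00215 and 0.044 without WT replicate 1 or 2, and up to 0.400 without Klf9 KO replicate 1. Ptges3 (p23), which holds HSP90 in its closed form, read 26.4 and 28.7 in knockout and 30.4 and 49.8 in wild-type hearts (-0.49 ± 0.24, limma adjusted p = 0.133; from 0.000259 without WT replicate 1 to 0.425 without Klf9 KO replicate 1). Unc45b, the myosin chaperone of striated muscle, was the one gene of the class above wild type. It read 25.2 and 26.5 in knockout and 21.4 and 23.2 in wild-type hearts and did not pass (0.20 ± 0.17, limma adjusted p = 0.371).

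Of the 9 DNAJ genes 5 fell, 1 rose and 3 did not pass, and the class median relative to all tested genes was -0.91. Dnajb9, an endoplasmic reticulum cofactor of BiP, read 12.6 and 11.0 in knockout and 26.4 and 44.0 in wild-type hearts. It was 2.99 times lower in the knockout (log2 fold change -1.46 ± 0.24, limma adjusted p = 0.00158). Dnajb4, a heat-inducible HSP40, read 22.2 and 21.3 in knockout and 37.8 and 62.0 in wild-type hearts (-1.12 ± 0.24, limma adjusted p = 0.00562). Its span overlaps Fubp1, which had a log2 fold change of 0.46. Both knockout libraries lay below both wild-type libraries in Dnajb9 and in Dnajb4, and both calls held without Klf9 KO replicate 2.

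Dnaja2, a type A HSP40 that serves refolding, read 51.6 and 49.5 in knockout and 83.8 and 121 in wild-type hearts (-0.98 ± 0.22, limma adjusted p = 0.0071). Dnaja4, a relative abundant in heart and skeletal muscle, read 27.2 and 30.3 in knockout and 53.4 and 61.3 in wild-type hearts (-0.97 ± 0.19, limma adjusted p = 0.00314). Dnajb2, which hands ubiquitylated clients to the proteasome, read 24.5 and 28.1 in knockout and 45.6 and 47.0 in wild-type hearts (-0.80 ± 0.18, limma adjusted p = 0.00725). Each of these 3 calls was lost in a fit that left out 1 knockout library, while the log2 fold changes stayed below 0. Dnaja2 then stood at -0.95 (without replicate 2) and Dnaja4 at -0.89 (without replicate 1). Dnajb2 stood at -0.70 and -0.89 without replicates 1 and 2. Dnaja2 had adjusted p = 0.0665 without Klf9 KO replicate 2, Dnaja4 had 0.0609 without replicate 1, and Dnajb2 had 0.154 and 0.0665 without replicates 1 and 2 (limma).

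Dnajb1, the main heat-inducible HSP40, went the other way from Hsph1 and Dnajb4. It read 8.16 and 9.85 in knockout and 6.38 and 5.31 in wild-type hearts, and both knockout libraries were higher (0.55 ± 0.18, limma adjusted p = 0.0358). The call was lost after RLE scaling (0.44, adjusted p = 0.0788), after upper quartile scaling (adjusted p = 0.0528), with no filter (adjusted p = 0.0654) and without Klf9 KO replicate 1 or 2 (adjusted p = 0.111 and 0.374). Dnajb6, which suppresses aggregation and whose human gene is mutated in a limb-girdle muscular dystrophy, read 35.7 and 37.0 in knockout and 48.7 and 47.0 in wild-type hearts (-0.39 ± 0.18, limma adjusted p = 0.105). It passed after RLE scaling (adjusted p = 0.0441) and without WT replicate 1 or 2 (0.0366 and 0.0246), with a highest adjusted p of 0.518 without Klf9 KO replicate 1. Dnajb5 had a log2 fold change of -0.15, and its groups did not overlap. Dnaja1 had the widest spread within wild type among the DNAJ genes, with 20.7 and 22.2 in knockout and 15.5 and 34.6 in wild-type hearts. Its log2 fold change was -0.11 with all libraries, -0.67 without WT replicate 1 and 0.45 without WT replicate 2, with limma adjusted p of 0.805, 0.00122 and 0.0179.

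Of the 3 BAG genes 1 fell. Bag3, the HSP70 cofactor that with Hspb8 directs damaged sarcomere proteins to autophagy, read 40.6 and 45.0 in knockout and 78.2 and 57.4 in wild-type hearts. The groups did not overlap (-0.64 ± 0.21, limma adjusted p = 0.035), but the call was lost without Klf9 KO replicate 1 or 2 (adjusted p = 0.285 and 0.176) and with no filter (0.071). Its log2 fold change was -0.42 without WT replicate 1. Bag1, which links HSP70 to the proteasome, read 88.5 and 92.6 in knockout and 97.8 and 126 in wild-type hearts (-0.29 ± 0.21, limma adjusted p = 0.282; from 0.0147 without WT replicate 1 to 0.691 without Klf9 KO replicate 1). Bag2, an inhibitor of the ubiquitin ligase CHIP, read 30.9 and 32.4 in knockout and 25.9 and 28.2 in wild-type hearts (0.22 ± 0.18, limma adjusted p = 0.337).

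Hsf1, the master regulator of the heat shock response, did not pass. It read 24.9 and 28.1 in knockout and 30.5 and 24.2 in wild-type hearts, and the groups overlapped. The log2 fold change was -0.04 with a 95% interval of -0.48 to 0.40, with 0.05 without Klf9 KO replicate 1 and 0.12 without WT replicate 1. Hsf2, a factor active in development, read 7.58 and 5.92 in knockout and 5.51 and 6.80 in wild-type hearts (0.11 ± 0.19, limma adjusted p = 0.656; -0.04 without Klf9 KO replicate 1 and -0.02 without WT replicate 1). Hsf4, known from the lens, read 0.37 and 0.71 in knockout and 1.56 and 1.49 in wild-type hearts (-0.72 ± 0.16, limma adjusted p = 0.00714; -1.57 with no pseudocount). It entered the test only through its wild-type values, so a difference was built into its selection, and it did not pass without Klf9 KO replicate 1 (adjusted p = 0.0782). The RNA of a factor does not show its activity.

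A list of 17 members known as HSF1 targets, which cuts across the classes, had 16 tested genes. Of these 9 fell (56.2%), beside 42.5% of the 40 tested chaperone genes and 17% of all tested genes. Only 1 rose (6.25%, beside 5% and 27.7%), and 6 did not pass. Their median less that of all tested genes was -0.82, beside -0.61 for the 40 chaperone genes. Hspb8 and Hspb6, which had the largest falls after Hsph1, are not in this list. Those that fell were Hsph1, Hspa4l, Cryab, Hsp90aa1, Dnajb4, Bag3, Ahsa1, Chordc1 and Fkbp4, and Dnajb1 rose. Without Klf9 KO replicate 2, 7 fell and 0 rose.

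**Figure D3:**
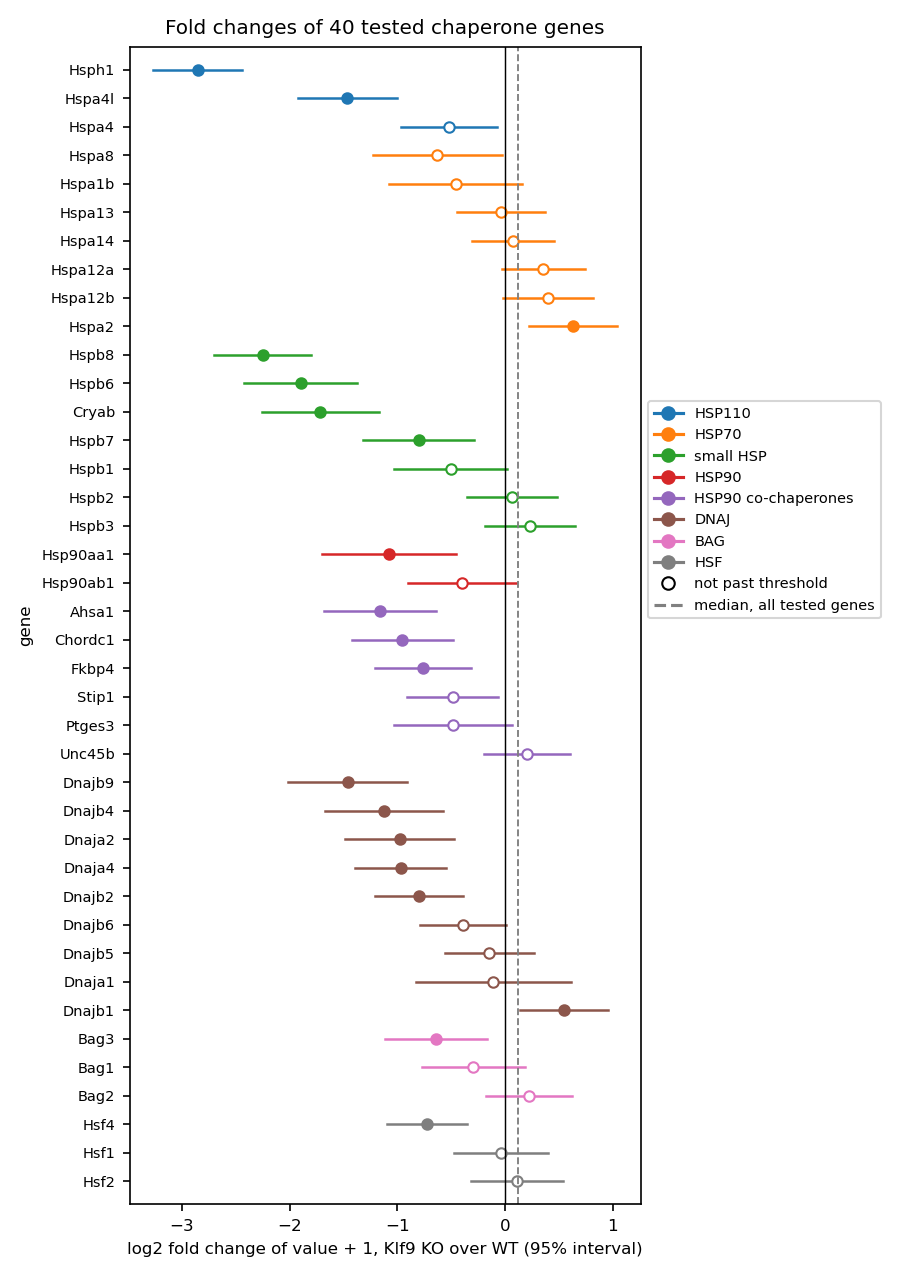
Log2 fold change of value + 1, Klf9 KO over WT (horizontal axis, with the 95% interval from limma), for the 40 tested chaperone genes (vertical axis, coloured by class); filled points passed the adjusted threshold of 0.05. Small HSP and HSP110 genes reach furthest to the left, and HSP70 genes lie on both sides of 0.

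The wild-type libraries also differed from each other in part of the chaperone genes. WT replicate 2 was above WT replicate 1 in 28 of the 40 tested chaperone genes (70%), against 52.4% of all tested genes. The median log2 ratio of WT replicate 2 over WT replicate 1 was 0.11 for the chaperones and 0.02 for all tested genes, and it was 0.35 for the HSF1 targets and 0.37 for the HSP90 co-chaperones. Values within the wild-type group differed by more than 1.5-fold in 8 of the 41 genes, and within the knockout group in 1 (Hsf4). Of the genes that fell, only Hsp90aa1, Dnajb4 and Dnajb9 were among those 8. The same shares over all tested genes were not counted. The largest ratios among the tested genes on the log2(value + 1) scale were those of Dnaja1 (1.11), Hspa1b (0.88), Hsp90aa1 (0.82), Dnajb9 (0.71) and Dnajb4 (0.70). Hsph1 (0.14), Hspb8 (0.01), Hspb7 (0.01) and Dnajb2 (0.04) differed little, while Bag3 (-0.44) and Hspb6 (-0.25) were lower in WT replicate 2.

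**Figure D4:**
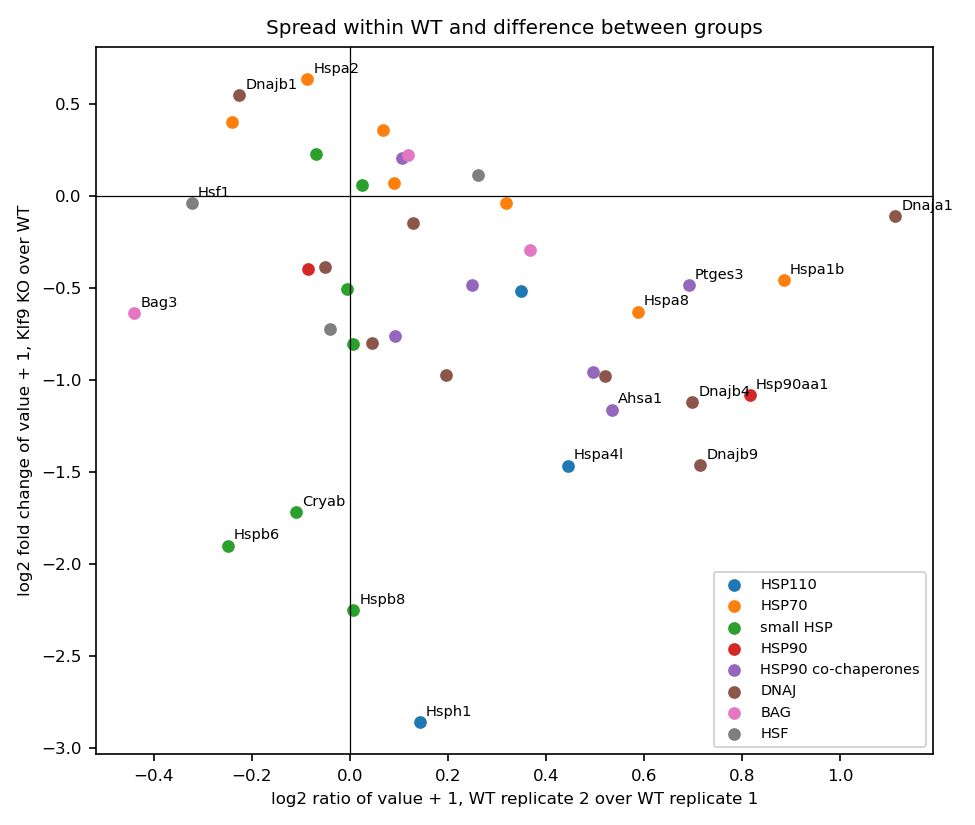
Log2 ratio of WT replicate 2 over WT replicate 1 (horizontal axis) against the log2 fold change of Klf9 KO over WT (vertical axis), both of value + 1, for the 40 tested chaperone genes coloured by class. Hsph1, Hspb8, Cryab and Hspb6 lie far below 0 with small ratios within wild type, whereas Hsp90aa1, Dnajb4 and Dnajb9 differ in both.

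Other proteostasis genes were counted in the same fit. Of the 15 genes of the TRiC chaperonin and prefoldin, which fold actin and tubulin, 0 rose and 0 fell in limma, and 0 had an unadjusted p below 0.05. Tcp1, a TRiC subunit, read 85.1 and 96.3 in knockout and 84.9 and 109 in wild-type hearts. Of 18 tested genes among 26 other cytosolic HSP and DNAJ genes 3 fell and 1 rose. The share that fell (16.7%) was near the 17% of all tested genes, and the share that rose was 5.56%, beside 27.7%. Among those that fell was Dnajc21, a ribosome biogenesis factor, with 7.78 and 7.52 in knockout and 16.6 and 24.8 in wild-type hearts (-1.30 ± 0.21, limma adjusted p = 0.00138). Dnajc12 (-1.002) and Dnajc2 (-0.91) also fell, and Hspb11, a ciliary protein despite its name, rose (0.54, adjusted p = 0.0299 in limma, 0.303 without Klf9 KO replicate 2). Dnajc7 did not pass (0.26).

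Among 28 tested genes of 29 further BAG, HSP70 or HSP90 cofactors 3 fell and 3 rose (10.7% each way, beside 17% and 27.7% of all tested genes). Fkbp5, a glucocorticoid-induced immunophilin, read 2.95 and 3.26 in knockout and 18.8 and 14.7 in wild-type hearts (-2.10 ± 0.18, limma adjusted p = 5.32e-05). Fnip1, which slows the HSP90 cycle, fell (-1.001), and the general myosin chaperone Unc45a (0.82) and Fkbp8 (0.82) rose. Fnip1, Unc45a and Fkbp8 did not pass without Klf9 KO replicate 2 (adjusted p = 0.0547, 0.0907 and 0.174). Itgb1bp2 (melusin), a muscle co-chaperone of HSP90, read 103 and 93.4 in knockout and 139 and 194 in wild-type hearts and fell (-0.74, limma adjusted p = 0.028; 0.271 without Klf9 KO replicate 2). Tomm34 rose (0.61). Without Klf9 KO replicate 2, 1 of these genes fell and 0 rose.

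Of 21 chaperones and stress sensors of the endoplasmic reticulum 5 fell and 0 rose, beside the 17% and 27.7% of all tested genes. Herpud1, of endoplasmic reticulum-associated degradation, read 38.0 and 36.6 in knockout and 117 and 125 in wild-type hearts (-1.67 ± 0.18, limma adjusted p = 0.000188). Atf6, a stress sensor of that organelle, fell (-1.09), and so did Hspa5 (BiP), its HSP70, with 82.8 and 81.0 in knockout and 147 and 204 in wild-type hearts (-1.07, limma adjusted p = 0.00485; 0.0517 without Klf9 KO replicate 2). Dnajc3 (-0.81) and Hsp90b1 (-0.64) fell too, and 2 of the list fell without Klf9 KO replicate 2. Calr, the calcium-binding calreticulin, did not pass (0.39, with 261 and 309 in knockout, 227 and 206 in wild-type hearts).

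In the list of other HSF1 network and temperature-responsive genes 3 of 14 tested rose and 3 fell. At 21.4% each way, this was near the 27.7% and 17% of all tested genes. The pair of cold-inducible RNA-binding proteins rose. Rbm3 read 143 and 170 in knockout and 28.2 and 37.3 in wild-type hearts (2.23 ± 0.21, limma adjusted p = 8.92e-05). Cirbp read 45.0 and 44.2 in knockout and 18.8 and 17.6 in wild-type hearts (1.25 ± 0.17, limma adjusted p = 0.000632). Both passed without Klf9 KO replicate 2. The collagen chaperone Serpinh1 (HSP47) rose as well (1.21), while the autophagy receptor Sqstm1 (-0.96) and Gpbp1 (-0.82) were among those that fell, and Ubb did not pass (0.22). Without Klf9 KO replicate 2, 3 rose and 0 fell in this list.

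Among 16 partners of BAG3 and small heat shock proteins in muscle, a list that holds Bag3 and Hspb8 themselves, 6 fell and 1 rose (37.5% and 6.25%, beside 17% and 27.7% of all tested genes). Without Klf9 KO replicate 2, 3 fell and 0 rose. Myot, the Z-disc protein myotilin, read 0.61 and 0.35 in knockout and 25.5 and 34.8 in wild-type hearts (-4.38 ± 0.20, limma adjusted p = 3.46e-06). Myot entered the test only through its wild-type values. Without it 5 of 15 fell (33.3%, beside 15.8% of genes that reached 1 in both groups). Those 5 were Bag3 and Hspb8, already counted as chaperone members, and Sqstm1, Synpo and Synpo2. The actin-capping subunit Capza1 rose (0.84, limma adjusted p = 0.00686; 0.117 without Klf9 KO replicate 2). Des, the desmin filament protein that Cryab binds, read 710 and 698 in knockout and 1107 and 943 in wild-type hearts and did not pass (-0.54 ± 0.23, limma adjusted p = 0.0854).

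**Figure D5:**
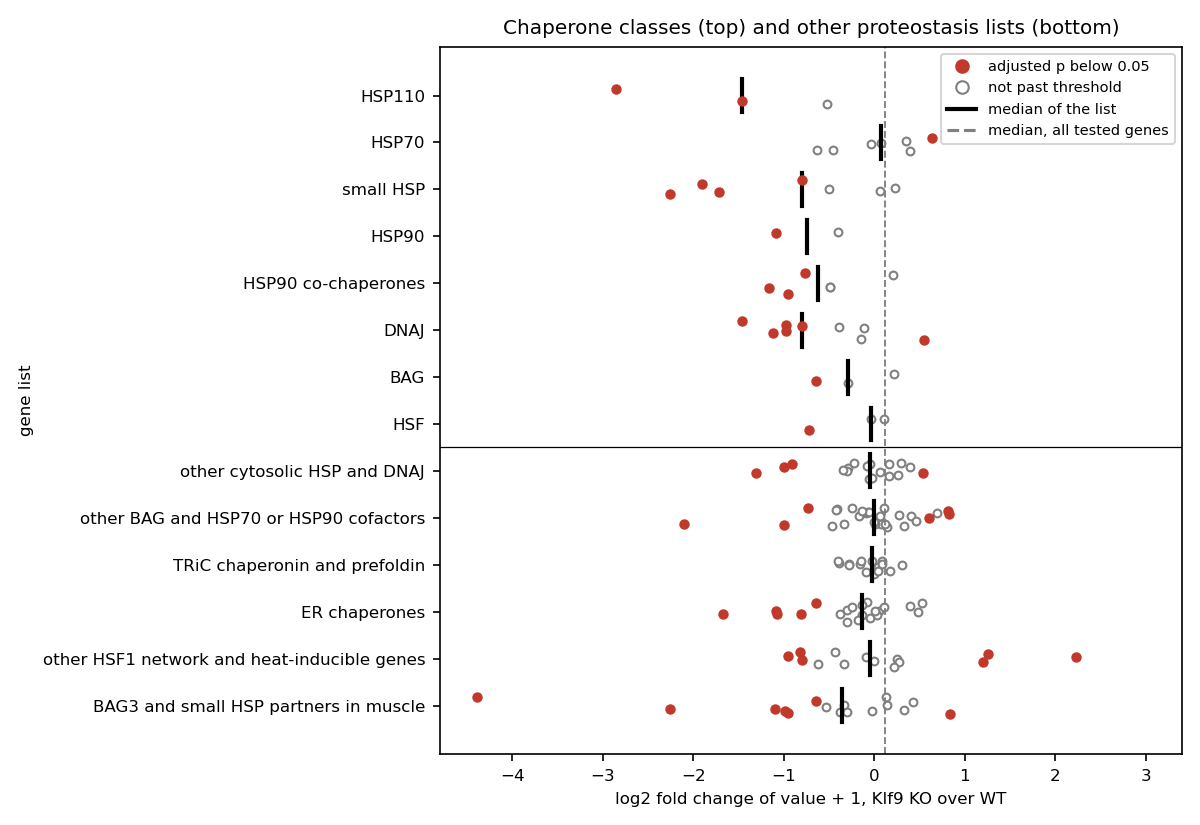
Log2 fold change of value + 1, Klf9 KO over WT (horizontal axis), for each tested gene of the 8 chaperone classes and of 6 further proteostasis lists (vertical axis); red points passed the adjusted threshold, black bars are list medians and the dashed line is the median of all tested genes. The TRiC and prefoldin list has no red point, and Rbm3 is the rightmost point.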

How the data were processed

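Per the file headers, the authors deposited log2 ratios for the 4 pairs of libraries, and a log2 ratio with a q-value from DEGseq for the groups. The sources used here name no aligner, counting tool, genome build or depth, so no counting error could be given.

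From the ratios of each gene, continued fractions gave the smallest set of 4 whole numbers that returns them, read as hundredths (the step of 0.01 is an assumption), so that the lowest value is 0.01. All 17485 genes were resolved. A factor shared by all 4 values is lost, which is expected for 7.61% of genes and lowers a gene's level, not its ratios. Values were tested with limma 3.58.1 (trend and robust settings, group as the only term) in R 4.3.3, on log2(value + 1), which understates changes of low genes. The test was tried on simulated data. Figures were drawn with matplotlib 3.10.9 in Python 3.11.15.

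Members and lists were chosen with earlier results of these data known, so no list was tested. All members are accounted for, with library values for those past the threshold and for the member of each class with the highest mean. Of each other list up to 2 genes a direction with the lowest p and the gene with the highest mean are named. The TRiC and prefoldin list is an exception, since Tcp1, the gene named there, does not have its highest mean. Other genes of those lists, overlapping neighbours, Esr1 and the Y-linked genes were named after their values were seen. The values of 1 listed gene are not reported here. The 12 alternatives changed scaling, filter, pseudocount, variance moderation, replicate block and libraries used.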

Additional observations from a re-analysis of the deposited data

How the results depend on the processing

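Of the 19 chaperone genes past the threshold, 9 kept the call under all 12 alternatives (Ahsa1, Chordc1, Cryab, Dnajb4, Dnajb9, Hspa4l, Hspb6, Hspb8 and Hsph1), and none of the 19 changed direction under any of those it was tested in. Hsf4 was not tested with a value of 1 required in all 4 libraries. The count of rising genes was lower after RLE scaling (1), after upper quartile scaling (1) and with no filter (1). With each library left out in turn, 0 to 4 chaperone genes rose and 10 to 26 fell, and of all tested genes 1859 to 4327 rose and 1100 to 3261 fell. The class medians relative to all tested genes then ran from -0.12 to 0.019 for HSP70, from -0.35 to -0.12 for the heat shock factors, from -0.52 to -0.26 for BAG and from -0.93 to -0.68 for the co-chaperones. With no filter the median was -0.85 for small HSPs and -0.081 for the heat shock factors, and -0.055 for the heat shock factors with a value of 1 required in all libraries. The sign turned for 6 genes that did not pass. Hspa14 and Hspb2 stood at -0.030 and -0.053 after RLE scaling. With single libraries left out, Hspa13 ran from -0.20 to 0.12, Hspa14 from -0.014 to 0.16, Hspb2 from -0.034 to 0.16, Hsf1 from -0.20 to 0.12, Hsf2 from -0.042 to 0.27 and Dnaja1 from -0.67 to 0.45. The cause of these changes was not tested. A group of 1 library is there assumed to vary like the other group, and 1 residual degree of freedom leaves the variance to moderation across genes, so those p-values carry little weight.

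The replicate numbers were not taken to pair the libraries, since deviations of same-numbered libraries had a correlation of -0.0355 across 12135 genes. With the replicate number as a block, 18 chaperone genes fell and 2 rose (2275 and 3514 of all tested genes), Hspa8 being the one gained (limma adjusted p = 0.0286). That fit leaves as few residual degrees of freedom as those with a library left out, so its p-values also carry little weight. With 2 libraries a group and no depth given, a change that did not pass is not shown to be absent.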
